A study of Mus musculus with 2197 samples.

Results

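Ngn3-GFPlow epithelial cells are cells of the embryonic mouse pancreas that were sorted for lower GFP from an Ngn3-GFP knock-in strain at embryonic days E13.5, E14.5 and E15.5 and that carried the epithelial adhesion gene Epcam without leukocyte genes. Members were the Ngn3-GFPlow cells with Epcam at 10 CPM or more (CPM are read counts scaled to the same total in every cell, without spike-ins) and with fewer than 2 of the leukocyte genes Csf1r, Tyrobp, Fcer1g and Ptprc at 100 CPM or more. The rule kept 160 of the 259 Ngn3-GFPlow cells, out of 2195 cells in the whole Smart-seq2 table. By day it kept 65 of 118 cells at E13.5, 73 of 104 at E14.5 and 22 of 37 at E15.5.

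Each cell was profiled with Smart-seq2, which reads whole transcripts of cells sorted into wells and adds no molecular identifiers, so that reads rather than molecules were counted. The series used the lower and higher GFP sorts to enrich the endocrine lineage, and 4 other sorts passed through the same rule here. These were Ngn3-GFPhigh cells of the same knock-in strain and the same 3 days (236 epithelial cells), Pdx1-Cre;Rosa-RFP+ cells of the same days (281), Ngn3-GFP+ cells of E12.5 not split by GFP level, and Gcg-GFP+ cells of E15.5 from Gcg-P2A-GFP embryos. All Ngn3-GFP cells carry GFP at the Neurog3 locus, and the labels do not say whether embryos were heterozygous. Pdx1-Cre marks every cell descended from a Pdx1-expressing progenitor, whatever it expresses when sorted.

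In the embryonic pancreas, tip cells give rise to acinar cells, while trunk cells, which express Sox9, Hes1 and Spp1, give rise to ducts and to the endocrine lineage. Notch signalling keeps trunk cells as progenitors through Hes1, and a trunk cell that raises the transcription factor Neurog3 leaves the cell cycle and becomes an endocrine precursor. GFP protein outlasts its transcript, so a cell of a Neurog3 reporter can stay GFP-positive when it no longer carries Neurog3 transcript.

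The Epcam threshold fell in an empty stretch. The lowest member had 67.8 CPM of Epcam, the next 108 CPM, the median 937 CPM and the highest 3580.2 CPM, and the only cell excluded by Epcam alone had 1.02 CPM. Of the 98 cells excluded by leukocyte genes, 96 carried 3 or 4 of the 4 genes, and only 1 reached 10 CPM of Epcam. Among members, 2 cells carried 1 of the 4 genes (Csf1r, at most 117 CPM). A member had 393429 to 1540960 counts (median 960448) and 5370 to 11446 detected genes (median 8679).

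Cells were placed in ranges by single genes, as a description of content. A cell with glucagon (Gcg) at 1000 CPM or more was in the Gcg range. Of the rest, a cell with Neurog3 at 100 CPM or more was in the Neurog3 range, and of those still left, a cell with Spp1 (osteopontin, a trunk and duct gene) at 100 CPM or more was in the Spp1 range. The genes are Gcg at chr2:62474530-62483650 on the minus strand, Neurog3 at chr10:62133090-62134763 and Spp1 at chr5:104435118-104441050, both on the plus strand (mm10). The Spp1 range held 64 cells (40%), the Neurog3 range 52 (32.5%) and the Gcg range 31 (19.4%), and 13 cells (8.13%) were in no range. No cell had Gcg between 173 and 3908 CPM, and 4 cells had Spp1 within a factor of 2 of its threshold. For Neurog3 that number was 25 cells, with the nearest at 93.6 CPM below the threshold and 101.6 CPM above it.

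A set is a group of cells whose titles carry the same number before that of the cell, and what it stands for (an embryo, a litter or a plate) is not stated. Sets were the replicates here, so the p-values reflect how sets vary, and that variation could be technical. Set 1 of E13.5 stood apart from sets 2 and 3 of that day. It held 0 Gcg-range cells among 24 members, against 21 of 30 and 7 of 11. Its cells also had a median of 887208 counts and 4.09% of counts on ERCC spike-ins, against 1074850 and 1096600 counts and 2.04% and 1.87% in the other two. Counts of calls, shares of the ranges and the values of Clu and Krt19 that rest on E13.5 are therefore given with and without that set, and the part of depth or spike-in share in them was not tested.

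Pooled over the sets of a day, the largest range was the Gcg range at E13.5 and the Spp1 range at E14.5 and E15.5. Set 1 of E13.5 held 0 Gcg-range cells, and no share passed a test between days. At E13.5, 28 of 65 members (43.1%, exact 95% interval 30.8 to 56%) were in the Gcg range, 17 (26.2%) in the Neurog3 range and 11 (16.9%) in the Spp1 range. At E14.5, 39 of 73 (53.4%, 41.4 to 65.2%) were in the Spp1 range, 27 (37.0%) in the Neurog3 range and 3 (4.11%) in the Gcg range. At E15.5, 14 of 22 (63.6%, 40.7 to 82.8%) were in the Spp1 range, 8 (36.4%) in the Neurog3 range and 0 in the Gcg range, where 0 cells, put at a floor of 3, allow a share of up to 13.6% and the exact interval reaches 15.4%. These intervals cover counting error over cells only and not the spread between sets.

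That spread was wide. The Spp1 range held 33.3, 10.0 and 0% of the 3 sets of E13.5, then 70.4, 50, 50, 37.5 and 25% of the 5 sets of E14.5, and 61.5 and 66.7% of the 2 sets of E15.5. The groups overlapped, since E14.5 set 5 lay below E13.5 set 1. The Gcg range held 0, 70 and 63.6% at E13.5, and it held 2 of 12 cells of set 3, 1 of 8 cells of set 5 and 0 in the other sets of E14.5 and in both sets of E15.5. The Neurog3 range held 54.2, 10.0 and 9.09% at E13.5, 14.8, 50, 33.3, 62.5 and 62.5% at E14.5 and 38.5 and 33.3% at E15.5. Its share followed neither day nor set number.

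**Figure D1:**
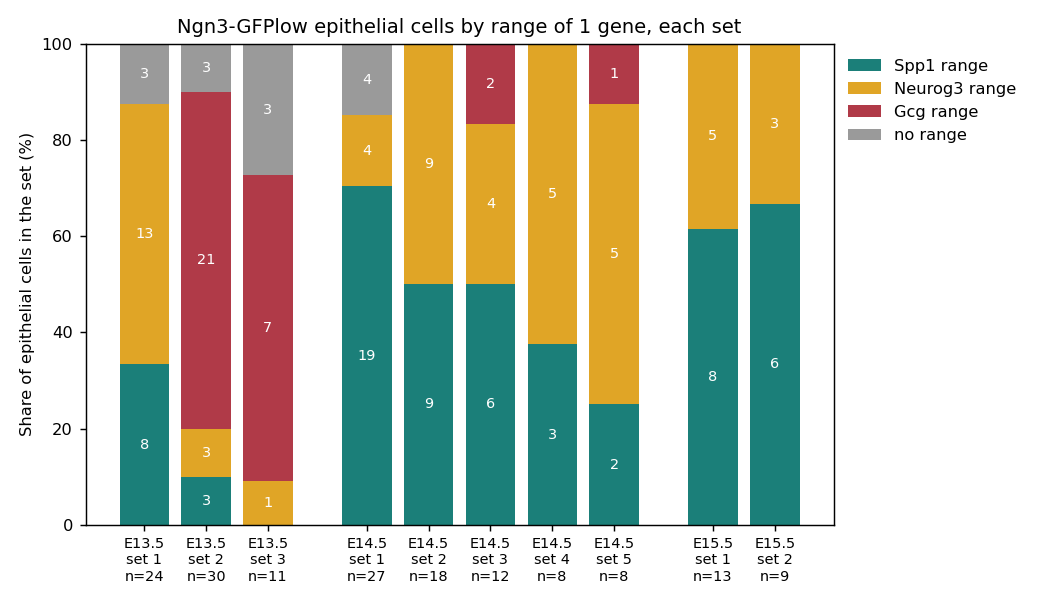
Share of Ngn3-GFPlow epithelial cells of each set (y axis, % of the set's members) in the Spp1, Neurog3, Gcg and no range. Numbers in the bars are cells. Gcg-range cells make up 70 and 63.6% of sets 2 and 3 of E13.5 and 0% of set 1 and of both sets of E15.5.

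None of the shares passed a test between days. Averaged over sets, the Spp1 range held 51.6% of cells in the 7 sets of E14.5 and E15.5 and 14.4% in the 3 sets of E13.5 (exact permutation test, two-sided, p = 0.0333, adjusted p = 0.511). The Gcg range held 4.17% and 44.5% (exact permutation p = 0.133, adjusted p = 0.511), and the Neurog3 range 42.1% and 24.4% (exact permutation p = 0.2, adjusted p = 0.597). Cells with Sox9, the trunk and progenitor transcription factor, at 100 CPM or more were 87.6% and 35.6% (exact permutation p = 0.0667, adjusted p = 0.511). Cells with the secretory granule gene Chga were 4.17% and 59.5% (exact permutation p = 0.05, adjusted p = 0.511). Adjustment was over 23 shares in 2 comparisons, 46 tests in all. The smallest p these 7 sets against 3 can give is 0.0167, and E15.5 against E14.5 (2 sets against 5) cannot go below 0.0952. Without E13.5 set 1 the Spp1, Gcg and Neurog3 ranges differed by 46.6, -62.7 and 32.6 points between the later and the earlier sets (exact permutation adjusted p = 0.16 for each).

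The 3 ranges were close to exclusive for glucagon and close to nested for Spp1 and Neurog3. None of the 31 Gcg-range cells reached 100 CPM of Spp1, Neurog3 or Sox9. In contrast, 51 of the 52 Neurog3-range cells also carried Spp1 at 100 CPM or more, and 40 also carried Sox9. Of the 115 members with Spp1 at 100 CPM, 103 carried Sox9.

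**Figure D2:**
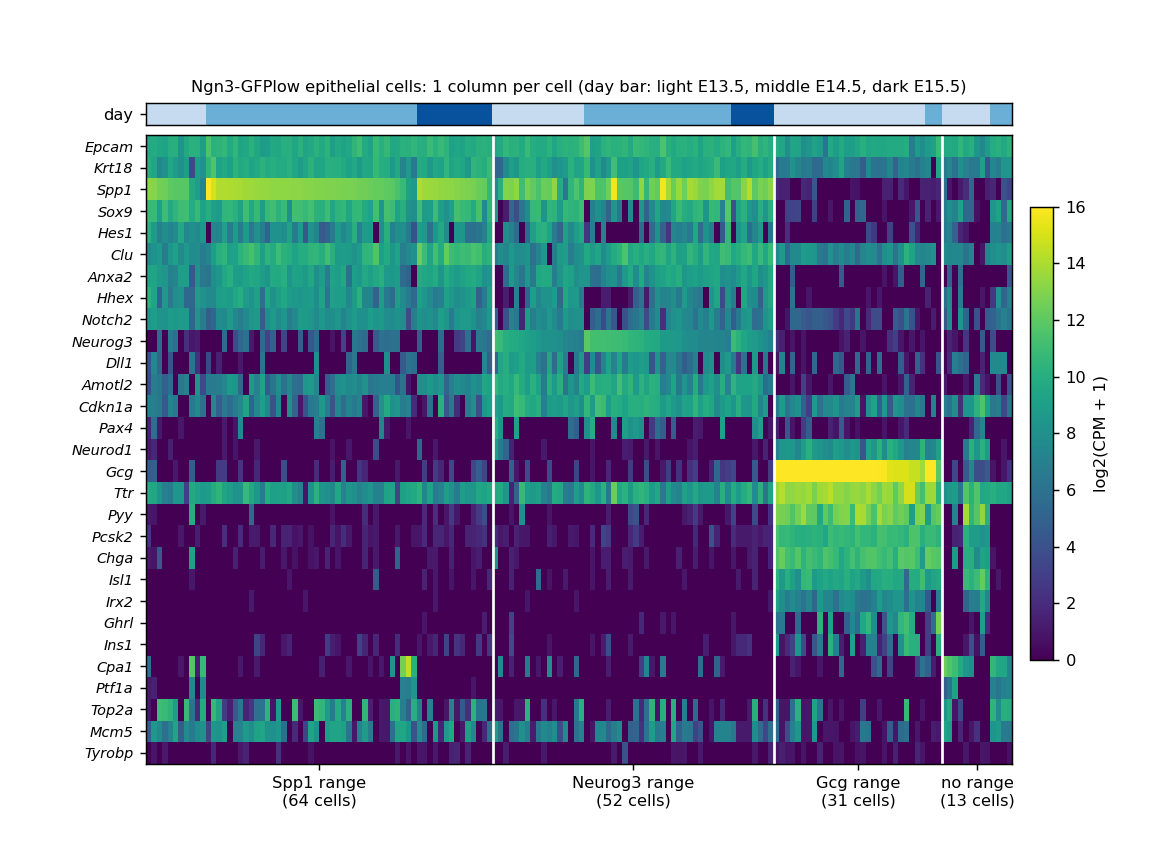
Expression of 29 genes (rows) in the 160 members (columns, ordered by range, day and level of the range's gene), as log2(CPM + 1). Spp1 is high in both the Spp1 and the Neurog3 range, and the genes from Gcg to Isl1 are high in the Gcg range. Pyy, Pcsk2, Chga and Isl1 are also high in part of the cells of no range, where Gcg is at most 173 CPM. Ttr is above 0 in nearly every column.

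The Spp1-range cells had high levels of several trunk genes and little of others. The median over the 64 cells was 8081 CPM for Spp1, 1402 CPM for Sox9 and 927 CPM for Clu, which encodes the secreted chaperone clusterin, and all 64 cells had Sox9 and Clu at 100 CPM or more. Hes1, the Notch effector, had a median of 218 CPM and reached 100 CPM in 73.4% of the cells. Medians were 787 CPM for Krt18, 493 CPM for Anxa2, 353 CPM for Hhex and 286 CPM for Notch2, and for the progenitor factors Pdx1 and Nkx6-1 they were 108 and 84.5 CPM. Of the 20 trunk and duct genes listed, Cftr, Car2, Mmp7, Anxa3 and Vtcn1 had a median of 0 CPM, and 100 CPM was reached by 1 of the 64 cells for Anxa3 and by 0 for the other four. Neurog3 itself had a median of 2.51 CPM.

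Over cells pooled from the sets of a day, medians of some genes in this range differed between days. Of the 11 cells of E13.5, 8 came from set 1 and 3 from set 2. Spp1 itself chose the cells, and these medians were not tested. Values of single sets are given below for Clu and Krt19. The median of Spp1 was 3745 CPM in the 11 cells of E13.5, 8793 CPM in the 39 of E14.5 and 9096 CPM in the 14 of E15.5. Clu had medians of 240, 941 and 2046 CPM, and Krt19, a duct keratin, 26.02, 99.2 and 109.6 CPM. Sox9 had 1696, 1255 and 1186 CPM. Top2a, a topoisomerase of dividing cells, had medians of 494, 64.6 and 12.99 CPM, and 54.5, 43.6 and 28.6% of the cells reached 100 CPM. Mcm5, a replication helicase gene, had 181, 227 and 52.02 CPM. The acinar gene Cpa1 reached 100 CPM in 6 of the 64 cells, of which 0 were of E15.5.

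Days were then compared over all members. Read counts of all members in a set were added up, and 15808 genes were compared between days over all members with edgeR's quasi-likelihood test and Benjamini-Hochberg adjustment. Between E14.5 and E13.5, 0 genes passed (0%), with 1671 at an unadjusted p under 0.05, 288 calls by DESeq2 and 24 by limma. Between E15.5 and E14.5 it was also 0 genes, with 752 at an unadjusted p under 0.05, 180 calls by DESeq2 and 1 by limma. Between E15.5 and E13.5, 1 gene passed (0.00633%), and it was Clu. In sums over all members, a change in the mix of ranges and a change of the level per cell cannot be told apart.

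Clu (chr14:65968483-65981547, plus strand, mm10) separated the days in every set. It had 242, 227 and 208 CPM in the 3 sets of E13.5, 664, 1405, 943, 1145 and 727 CPM in the 5 sets of E14.5 and 2224 and 1766 CPM in the 2 sets of E15.5. No set overlapped with a set of another day. Between E13.5 and E15.5 alone, 12% of all genes were separated in the higher direction. The share of genes separated over all 3 days was not counted. The mean rose from 225 ± 17.2 CPM (SD, n = 3) at E13.5 to 1995 ± 324 CPM (SD, n = 2) at E15.5, a log2 fold change of 3.16 ± 0.30 (SE; edgeR's quasi-likelihood test, Benjamini-Hochberg adjusted p = 0.0045). The E14.5 sets gave a log2 difference from E13.5 of 2.11 ± 0.26 (SE), with adjusted p = 0.0584 by edgeR. Without E13.5 set 1 these differences of Clu were 3.17 and 2.11, with edgeR adjusted p = 0.0024 and 0.0065. With the set number as a block, Clu did not pass between E15.5 and E13.5, though the numbers were not taken to pair the sets. In the Neurog3 range Clu had medians of 241, 837 and 1338 CPM over the pooled cells of the 3 days. Of the 17 cells of E13.5, 13 were from set 1. The order of medians thus held in the Spp1 and Neurog3 ranges. It did not in the Gcg range, where the medians were 188 CPM in 28 cells of E13.5 and 181 CPM in 3 cells of E14.5.

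Without E13.5 set 1 the day comparisons gave 570 calls between E14.5 and E13.5 (343 higher, 227 lower) and 446 between E15.5 and E13.5. Without E14.5 set 1 the former gave 1 call, and without E13.5 set 2, E13.5 set 3 or E15.5 set 1 the latter gave 2 calls each. The difference between 0 and 570 calls rests on E13.5 set 1, which had no Gcg-range cells and also differed in depth and spike-in share. Which of these moved the count was not tested.

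Of 19 trunk and duct genes tested, 1 rose between E13.5 and E15.5 (Clu), and the median log2 difference was 1.90 beside -0.12 over all genes. Of 16 alpha cell genes and 18 pan-endocrine genes tested, 0 passed, and their medians were -8.92 and -9.58, or -8.42 and -9.55 with genes at 0 counts put at their bound of 3 counts. All sets were separated in the lower direction for 7 and 11 of these genes, beside 17.1% of all genes. Of 18 endoderm and progenitor factors 0 passed, with a median of -0.15. Of 18 S phase genes 0 passed, with a median of 0.62, and of 20 G2/M genes 0 passed, with a median of 0.34. Of 12 immediate early genes, whose transcripts also respond to tissue dissociation, 0 passed, 5 were separated in the higher direction beside 12% of all genes, and the median was 1.39. The part of that list in the rise of Clu was not tested. These list values all include E13.5 set 1.

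Within the Spp1 range alone, 0 of 14806 genes passed between E14.5 (4 sets) and E13.5 (2 sets), which is 0%, with 740 at an unadjusted p under 0.05, 65 calls by DESeq2 and 3 by limma. Between E15.5 and E14.5 it was 0 as well, with 616, 62 and 1. Clu had 295 and 241 CPM in the 2 sets of E13.5 and 714, 1560, 1261 and 1373 CPM in the 4 sets of E14.5, a log2 difference of 2.24 ± 0.63 (SE; edgeR adjusted p = 0.918). Krt19 had 41.8 and 33.3 CPM against 124, 125, 132 and 62.5 CPM, a log2 difference of 1.62 ± 0.40 (SE; edgeR adjusted p = 0.6253). The sets of both genes were separated, as were those of 12.8% of all genes. Of 18 S phase genes 0 passed, with a median of 0.88. Of them 8 were separated, all higher at E14.5, beside 12.8% of all genes in either direction. The share of all genes for the higher direction alone is not given. Of 20 G2/M genes 0 passed and 0 were separated in either direction, with a median of -0.17. Without E13.5 set 1, which leaves a single set on that day, the fit gave 25 calls, with log2 differences of 2.47 for Clu and 1.87 for Krt19 that did not pass, and without E13.5 set 2 or E14.5 set 1 it gave 1.

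Spp1-range cells of the Ngn3-GFPlow sort were next set against those chosen by the same rule from the Pdx1-Cre;Rosa-RFP+ sort of the same days. Strain and reporter differ together with GFP at the Neurog3 locus, so their parts in the differences cannot be told apart. The rule does not keep out cells with tip or acinar transcripts. The acinar genes had a median log2 difference of -5.42, and the part of a different mix of such cells was not tested. The Ngn3-GFPlow cells had more of the trunk genes Pkhd1, Dcdc2a and Anxa2, more of the progenitor factors Hhex, Nkx6-1 and Glis3, and more of the endocrine progenitor genes Amotl2 and Cdkn1a. They had less of the acinar gene Bhlha15 and of Sec61b and Dnajc3, genes of the endoplasmic reticulum. The 8 Ngn3-GFPlow sets held 62 cells and the 9 Pdx1-Cre sets 83. Of 14806 genes, 529 differed (3.57%), with 217 higher (1.47%) and 312 lower (2.11%) in Ngn3-GFPlow cells, as a mean over the 3 days.

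Pkhd1, which encodes the cilium protein fibrocystin, had 120, 225 and 448 CPM in the lowest, median and highest Ngn3-GFPlow set, and 41.99, 91.2 and 146 CPM in the Pdx1-Cre sets. The log2 fold change was 1.45 ± 0.23 (SE; edgeR adjusted p = 0.0019). The ranges of Pkhd1 overlapped between 120 and 146 CPM. Dcdc2a, another cilium gene, was higher by 2.1 ± 0.54 (log2, SE) and Anxa2, an annexin, by 0.94 ± 0.21. Cldn10, a tight junction gene, was the single trunk and duct gene that was lower (-1.07 ± 0.26, log2, SE). In all, 4 of 18 trunk and duct genes were higher and 1 lower, with a median of 0.49 beside 0.05 over all genes.

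Of 17 endoderm and progenitor factors, 3 were higher and 1 lower, with a median of 0.63. Hhex, a homeobox gene needed for the ventral pancreas, had 211, 385 and 624 CPM (lowest, median and highest set) against 46.8, 234 and 349 CPM, a log2 fold change of 1.36 ± 0.19 (SE; edgeR adjusted p = 0.0015). Nkx6-1, which favours trunk over tip, had 29.2, 102 and 169 CPM against 11.0, 42 and 85.9 CPM and was higher by 1.53 ± 0.30 (log2, SE). The sets of both genes overlapped. Glis3 was higher by 1.97 ± 0.47 and Gata4, a factor of tip cells, was lower, with a log2 fold change of -2.47 ± 0.56 (SE). The acinar genes had 0 higher and 2 lower of 14, with a median of -5.42. Bhlha15, a transcription factor of secretory acinar cells, had 0, 1.89 and 25.4 CPM against 0, 73.6 and 482 CPM (-5.27 ± 1.30), and its sets overlapped.

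Of 14 endocrine progenitor genes, 2 were higher. Amotl2, a junction scaffold protein, had 43.4, 141 and 282 CPM against 0.645, 69.1 and 156 CPM, and Cdkn1a, the cell cycle inhibitor p21, 74.4, 122 and 236 CPM against 26.7, 69.8 and 95.9 CPM. Both overlapped between the sorts, with log2 fold changes of 1.43 ± 0.38 and 1.03 ± 0.25 (SE). Jun was the 1 higher gene among 12 immediate early genes, with 320, 458 and 689 CPM against 108, 215 and 334 CPM. The median of that list was 1.35, and its part in the comparison was not tested. Of 16 Notch genes and 18 S phase genes, 0 passed, and of 20 G2/M genes 1 was lower (Ccnb2).

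Among the genes whose sets did not overlap (0.209% of all), the largest difference was in Grin3a, a glutamate receptor subunit. It had 22.8, 62.03 and 344 CPM against 0, 4.06 and 21.3 CPM, a log2 fold change of 5.86 ± 1.26 (SE; edgeR adjusted p = 0.0198). Prr5l (3.60 ± 0.66), Arl4c (2.61 ± 0.53), Col11a2 (2.55 ± 0.52), Cercam (1.32 ± 0.32), Magi1 (1.26 ± 0.28) and Gprc5c (1.15 ± 0.17) were also higher on the log2 scale in every Ngn3-GFPlow set. Sec61b, a subunit of the translocon through which secreted proteins enter the endoplasmic reticulum, had 124, 141 and 172 CPM against 175, 270 and 640 CPM, a log2 fold change of -1.28 ± 0.18 (SE; edgeR adjusted p = 0.0015). Dnajc3, an endoplasmic reticulum chaperone (-1.30 ± 0.24), Cdk5rap3 (-1.56 ± 0.26), the mitochondrial genes Atp5g1 (-1.05 ± 0.17) and Ndufb8 (-0.72 ± 0.16), and the nucleolar genes Nhp2 (-0.96 ± 0.18) and Dnttip2 (-0.87 ± 0.22) were lower. The gene model Gm26905 (1.12 ± 0.19) and the ribosomal pseudogene Rps15a-ps8 (-2.01 ± 0.49) also passed, but reads of such genes can be shared with near-identical copies.

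**Figure D3:**
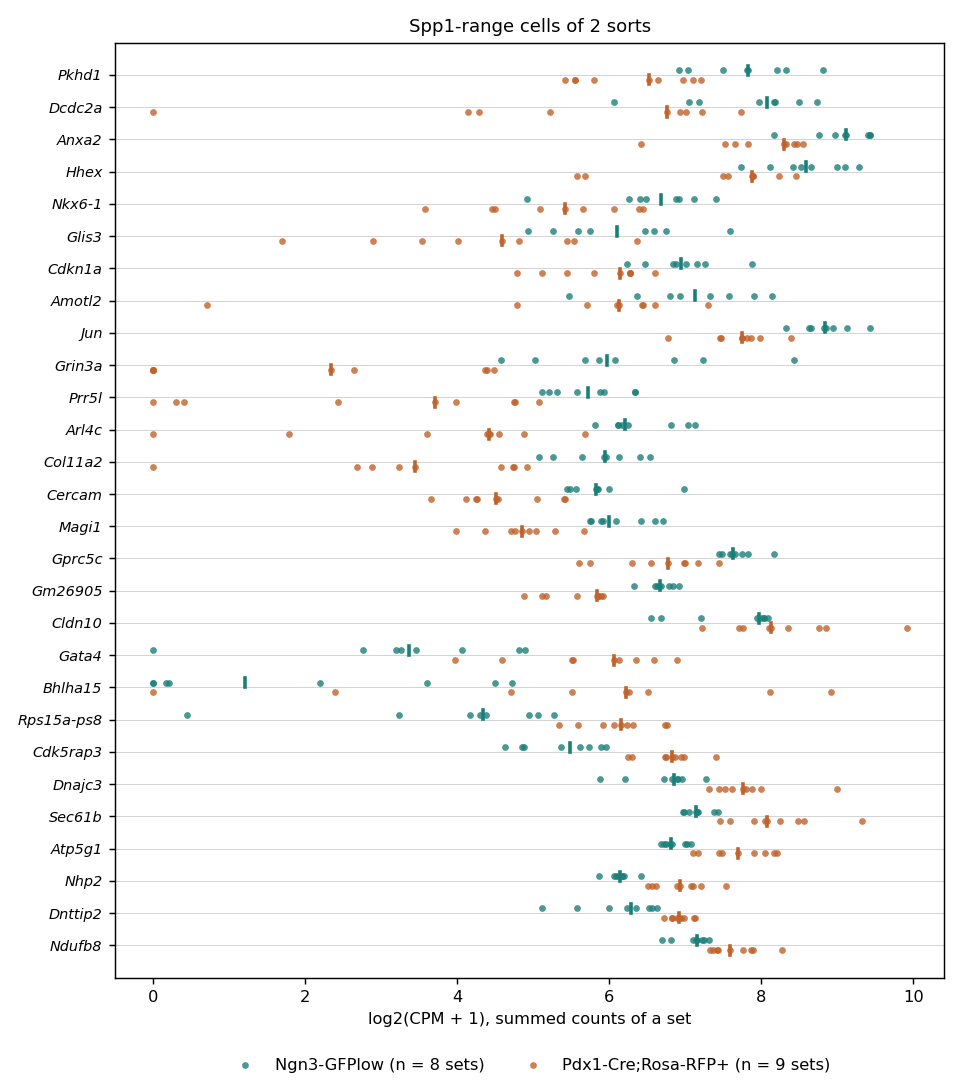
Spp1-range cells of the Ngn3-GFPlow sort (8 sets) and of the Pdx1-Cre;Rosa-RFP+ sort (9 sets), with 1 point per set, vertical bars at the median over sets, and the x axis in log2(CPM + 1) of summed counts. The sets overlap for the trunk genes at the top and do not for Grin3a, Prr5l, Sec61b and other genes chosen for separation.

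Spp1 chose these cells and was not tested. It had 3540.5, 9006 and 11097 CPM (lowest, median and highest set) against 1421, 3917 and 8798 CPM, so the Ngn3-GFPlow cells also held more of the gene that defined the range. With Spp1 at 1000 CPM or more in every cell, 36 genes passed (27 higher, 9 lower) and 2 of the 28 genes named did. Single sets moved the count too, with 259 calls without Ngn3-GFPlow E13.5 set 2, 260 without E15.5 set 1, 233 without E15.5 set 2, 315 without Pdx1-Cre E13.5 set 1 and 301 without Pdx1-Cre E15.5 set 1. The 85 Pdx1-Cre cells of this range had a median of 737936 counts against 918184 in the 64 Ngn3-GFPlow cells, and the part of depth was not tested.

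The Neurog3-range cells combined Neurog3 with trunk genes. Over the 52 cells the median was 448 CPM for Neurog3, 5731 CPM for Spp1, 709 CPM for Clu and 350 CPM for Sox9. Hes1 reached 100 CPM in 48.1% of the cells (median 81.4 CPM), and Dll1, the Notch ligand that Neurog3 turns on, in 57.7% (140 CPM). Cdkn1a had a median of 626 CPM and Amotl2 660 CPM. Nkx2-2, a factor needed for islet cell types, had a median of 124 CPM, and Notch1 193 CPM. Pax4 reached 100 CPM in 13 of the 52 cells. Neurod1 did so in 3.85%, Chga in 1.92% and Fev in 0 of 52 cells, all with a median of 0 CPM. Top2a reached 100 CPM in 13.46%.

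Neurog3-range cells of the Ngn3-GFPlow and Ngn3-GFPhigh sorts were compared to ask how cells that both carry Neurog3 transcript differ with GFP. In the Ngn3-GFPlow cells Sox9, Krt18, Anxa2, Pkhd1, Notch1, Notch2, Hes1, Hhex and Cdh1 were higher, and Neurod1, Pax6, Pax4, Rfx6, Chga, Chgb and Fev were lower. The fit held 51 cells in 9 sets and 106 cells in 8 sets. Of 15017 genes, 1894 differed (12.6%), 900 higher (5.99%) and 994 lower (6.62%) in Ngn3-GFPlow cells. The median of counts was 873444 over the 52 Ngn3-GFPlow cells of the range and 948825 over the 106 Ngn3-GFPhigh cells.

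Sox9 (chr11:112782224-112787760, plus strand, mm10) had 260, 630 and 1680 CPM in the lowest, median and highest Ngn3-GFPlow set and 55.3, 96.0 and 155 CPM in the Ngn3-GFPhigh sets. No set overlapped, as was so for 3.76% of all genes in either direction. The log2 fold change was 2.87 ± 0.30 (SE; edgeR adjusted p = 1.26e-05). With Neurog3 at 1000 CPM or more in every cell the difference of Sox9 was -0.32 and did not pass. Anxa2 had 313, 443 and 664 CPM against 0, 11.1 and 95.9 CPM (log2 fold change 4.70 ± 0.74, SE). Krt18 had 529, 735 and 1202 CPM against 67.3, 153 and 252 CPM (2.20 ± 0.24), also without overlap. Pkhd1 (3.22 ± 0.33), Dcdc2a (8.81 ± 0.88) and Bicc1, an RNA-binding protein of tubular epithelia (6.29 ± 0.63), were higher on the log2 scale as well.

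In all, 11 of 16 trunk and duct genes were higher and 3 lower, with a median of 2.54 beside -0.08 over all genes. The 3 lower genes were Krt7, Krt19 and Cldn4, which encode 2 keratins and a claudin of simple epithelia. Krt7 had 239, 356 and 636 CPM against 805, 1022 and 1628 CPM, with no overlap and a log2 fold change of -1.75 ± 0.18 (SE; edgeR adjusted p = 1.26e-05). Krt19 had 52.3, 141 and 233 CPM against 172, 298 and 540 CPM (-1.09 ± 0.31), and its sets overlapped. Of 9 epithelial genes, 3 were higher and 1 lower. Cdh1, which encodes E-cadherin, had 436, 606 and 780 CPM against 61.97, 137 and 179 CPM (2.21 ± 0.20), and Cldn3 was higher by 2.68 ± 0.24 (log2, SE).

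Of 17 Notch pathway genes, 7 were higher and 2 lower, with a median of 0.78. The receptor genes Notch1 (98.2, 199 and 378 CPM against 0, 17.3 and 46.9 CPM) and Notch2 (50.7, 148 and 356 CPM against 0.507, 8.48 and 18.0 CPM) did not overlap between the sorts. Their log2 fold changes were 3.43 ± 0.55 and 4.45 ± 0.57 (SE). The effector Hes1 had 1.03, 143 and 403 CPM against 0, 1.64 and 26.9 CPM (5.31 ± 1.11), and the ligand Dll1 25.1, 217 and 429 CPM against 23.6, 53.5 and 132 CPM (1.64 ± 0.41). Both overlapped at their ends. Jag1, Heyl and Sox9 were the other higher members. Mfng, a Notch-modifying glycosyltransferase induced by Neurog3, was lower (-2.70 ± 0.79), as was Jag2.

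Of 17 endoderm and progenitor factors, 3 were higher and 2 lower, with a median of -0.17. Hhex had 16.7, 211 and 374 CPM against 0, 9.90 and 14.46 CPM (log2 fold change 4.74 ± 0.84, SE), and Onecut1, a factor of the early pancreatic epithelium, 4.66, 52.4 and 96.5 CPM against 0, 0.161 and 0.604 CPM (8.16 ± 0.91). Neither overlapped. With Neurog3 at 1000 CPM or more in every cell they were -2.43 and -0.08 and did not pass. Nkx2-2 (-1.15 ± 0.24) and Nkx6-1 (-0.98 ± 0.24) were lower with overlap.

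Of 15 endocrine progenitor genes, 1 was higher (Dll1) and 9 were lower, with a median of -1.70. Pax4 had 0, 83.9 and 257 CPM against 635, 759 and 1128 CPM, without overlap (-2.99 ± 0.74; edgeR adjusted p = 0.0139). Rfx6, an islet transcription factor, had 23.97, 109.8 and 262 CPM against 356, 618 and 963 CPM (-2.56 ± 0.42), and Hes6 95.8, 294 and 510 CPM against 524, 670 and 785 CPM (-1.34 ± 0.23). Neither overlapped. Cdkn1a was lower by a smaller amount (-0.94 ± 0.21), with 391, 755 and 1038 CPM against 715, 972 and 1798 CPM in sums. Cell by cell the order was the opposite, with medians of 626 CPM in Ngn3-GFPlow and 490 CPM in Ngn3-GFPhigh cells, and with 51 of 52 and 89 of 106 cells at 100 CPM or more.

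All 10 late endocrine precursor genes were lower, with a median of -8.49, and 17 of 18 pan-endocrine genes, with a median of -8.40. Neurod1, the bHLH factor downstream of Neurog3, had 0, 0.262 and 39.9 CPM against 406, 642 and 841 CPM (-9.01 ± 0.78; edgeR adjusted p = 2.94e-06). The granule gene Chgb had 0, 1.52 and 3.65 CPM against 347, 3832 and 5525 CPM (-10.81 ± 0.70). Neither overlapped. Fev had 0, 0.0886 and 3.43 CPM against 0.228, 319 and 509 CPM (-11.56 ± 1.43), and its sets overlapped through 1 Ngn3-GFPhigh set. Pax6 (-8.64 ± 0.54), Chga (-8.49 ± 0.96) and Isl1 (-8.35 ± 0.92) were lower without overlap.

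Of 14 alpha cell genes 0 were higher and 7 lower, with a median of -5.01. Of 11 beta cell genes 5 were lower, including Ins1 and Ins2, whose near-identical sequences can split reads, and Slc2a2, a glucose transporter also of early progenitors, was higher (5.64 ± 1.15). By cells, Neurod1 reached 100 CPM in 2 of 52 Ngn3-GFPlow and 86 of 106 Ngn3-GFPhigh cells. Pax4 did so in 13 of 52 and 99 of 106, Chgb in 0 of 52 and 49 of 106, Hes1 in 25 of 52 and 1 of 106, and Spp1 in 51 of 52 and 27 of 106.

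The largest differences among genes that passed, with separated sets and a mean of 50 CPM or more in 1 sort, were of mixed kinds. On the higher side were Adamts16, a secreted protease (log2 fold change 10.22 ± 1.17, SE), Cyr61, a matrix protein gene (10.18 ± 1.12), Ugt2b34 (9.80 ± 0.94), the chemokine gene Cxcl12 (9.04 ± 1.29), the ligand gene Wnt7b (8.78 ± 1.11), Gja1, which encodes connexin 43 (8.63 ± 1.42), and Mboat1 (8.41 ± 1.22). Cxcl12 had 103, 702 and 1510 CPM against 0, 1.19 and 83.7 CPM. On the lower side were the transcription factor genes St18 (-12.90 ± 0.68) and Runx1t1 (-9.48 ± 0.58), Dner (-10.90 ± 1.26), Plcxd3 (-10.35 ± 0.76), the G protein subunit gene Gnao1 (-10.17 ± 0.80) and the calcium sensor gene Scgn (-9.98 ± 1.10). Slc35d3 had 0 counts in every Ngn3-GFPlow set and 28.1 to 136 CPM in the Ngn3-GFPhigh sets. With the Ngn3-GFPlow sets together put at a floor of 3 counts it was 1578-fold lower, and that floor covers counting error alone.

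Of 20 G2/M genes 8 were higher and 0 lower, with a median of 4.17, and Cdk1 had 0, 82.6 and 442 CPM against 0, 5.35 and 45.1 CPM (4.38 ± 1.38; edgeR adjusted p = 0.048). These sums rest on few cells, since Cdk1 and Top2a reached 100 CPM in 8 and 7 of the 52 cells and had a median of 0 CPM, and with Neurog3 at 1000 CPM or more Cdk1 was at -1.72 and did not pass. Of 18 S phase genes 3 were higher, Mcm6 among them (1.30 ± 0.25), with a median of 0.50. Of 12 immediate early genes 3 were higher (Ier2, Ier3 and Jun) and 0 lower, with a median of 0.43, and the part of that list was not tested. Vim, a filament gene on the mesenchyme list, was higher (2.52 ± 0.25), while Pdgfra and Cdh5, which define mesenchyme and endothelium, were at 0 in every member. The neural list's Tubb3, Ret and Elavl4 were lower, and Tubb3 had 0, 0.237 and 97.1 CPM against 230, 544 and 612 CPM.

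**Figure D4:**
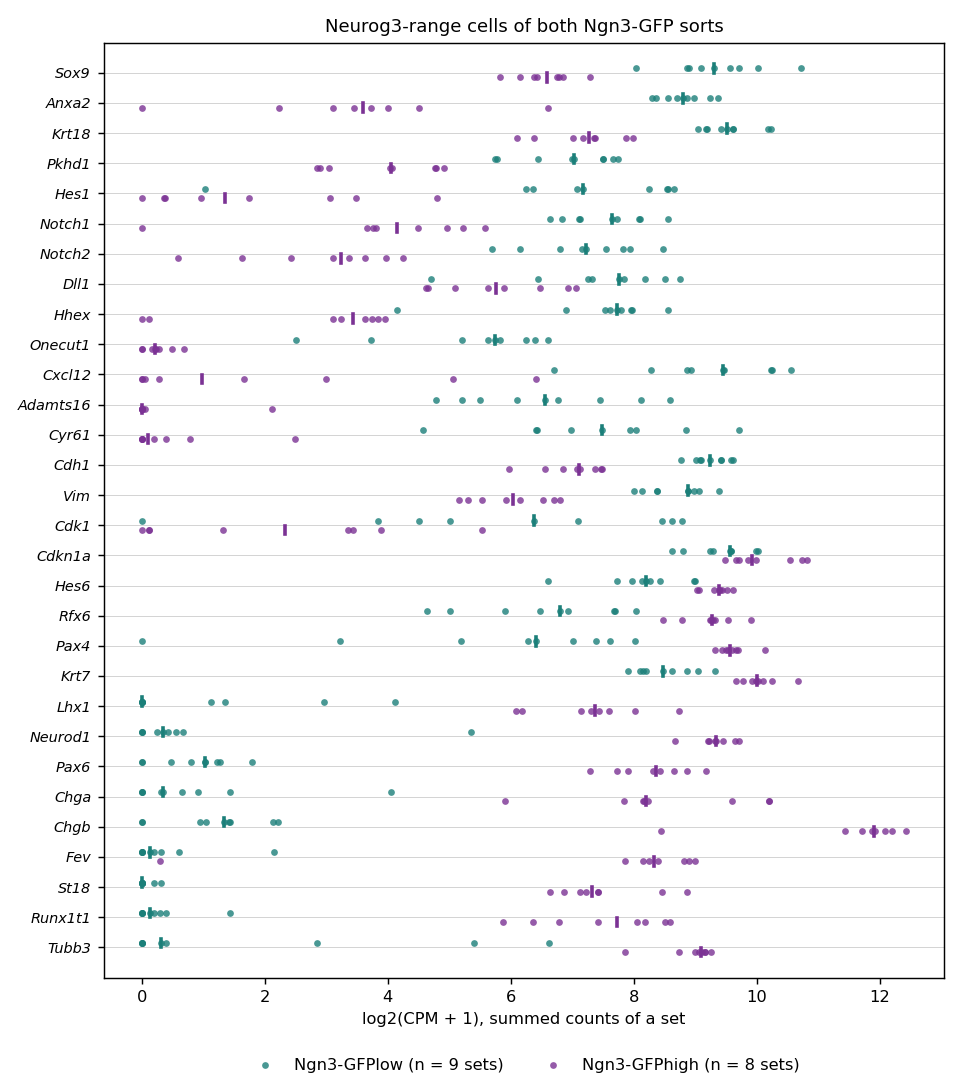
Neurog3-range cells of the Ngn3-GFPlow (9 sets) and Ngn3-GFPhigh (8 sets) sorts, with 1 point per set, vertical bars at the median over sets, and the x axis in log2(CPM + 1) of summed counts. Sox9, Notch1, Notch2 and Cdh1 lie to the right in every Ngn3-GFPlow set, and Pax4, Neurod1, Pax6 and Chgb in every Ngn3-GFPhigh set.

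Neurog3 itself chose these cells and was not tested, but it differed in level. It had 331, 844 and 1217 CPM (lowest, median and highest set) in the Ngn3-GFPlow sets and 1450, 1669 and 2642 CPM in the Ngn3-GFPhigh sets, without overlap. With Neurog3 at 1000 CPM or more in every cell, which left 8 cells in 2 Ngn3-GFPlow sets, 301 genes passed (11 higher, 290 lower). Of the 55 genes named, 14 still passed, Neurod1, Chgb, Krt7 and Dll1 among them, and Cyr61 (-0.56) had a negative log2 difference that did not pass, as had Sox9, Hhex, Onecut1 and Cdk1. Without Ngn3-GFPlow E13.5 set 2, 1053 genes passed.

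Cells were therefore also described at matched Neurog3 levels, in bands chosen after the data were seen. Between 100 and 300 CPM of Neurog3 there were 20 Ngn3-GFPlow and 13 Ngn3-GFPhigh cells. Spp1 had a median of 6408 CPM in the former and 2.46 CPM in the latter, Sox9 1289 and 42.6 CPM, Chgb 1.94 and 12695 CPM, and Neurod1 0 and 915 CPM. Neurod1 reached 100 CPM in 0 of the 20 and in 13 of the 13 cells. Cells with little Neurog3 thus carried trunk genes in the one sort and granule genes in the other.

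At 1000 CPM or more there were 16 Ngn3-GFPlow and 78 Ngn3-GFPhigh cells. Medians of Sox9 were 110 and 41.3 CPM, of Spp1 3516 and 3.11 CPM, of Hes6 543 and 736 CPM, of Pax4 215 and 831 CPM, and of Neurod1 0 and 542 CPM. Across the 3 bands of the Ngn3-GFPlow cells (100 to 300, 300 to 1000, and 1000 CPM or more), Sox9 had medians of 1289, 228 and 110 CPM and Hes1 of 175, 86.6 and 0 CPM. Rfx6 had 10.9, 111 and 221 CPM, Hes6 142, 210 and 543 CPM, and Cdkn1a 473, 826 and 961 CPM. Other genes were highest in the middle band. They were Dll1 (82.7, 255 and 179 CPM), Krt18 (674, 842 and 512 CPM), Cdh1 (567, 642 and 500 CPM) and Krt7 (311, 362 and 357 CPM). All are medians over cells pooled from sets. Cdkn1a had 271, 495 and 525 CPM in the same bands of the Ngn3-GFPhigh cells. Neurod1 stayed at a median of 0 and Chgb below 2 CPM in all 3 bands.

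**Figure D5:**
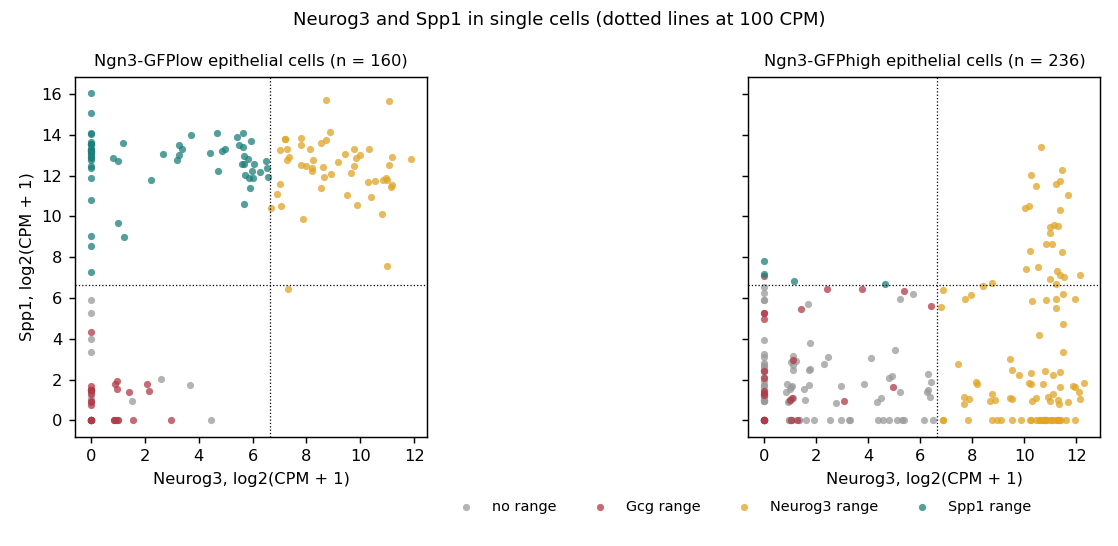
Neurog3 (x axis) against Spp1 (y axis) in single cells of the Ngn3-GFPlow sort (160 cells) and the Ngn3-GFPhigh sort (236 cells), both as log2(CPM + 1) and coloured by range, with dotted lines at 100 CPM. In the Ngn3-GFPlow sort 51 of 52 Neurog3-range cells lie above the Spp1 line, and in the Ngn3-GFPhigh sort 27 of 106.

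The Gcg-range cells, which Gcg chose, carried many alpha cell and pan-endocrine genes and little of some others. Over the 31 cells the median was 85764 CPM for Gcg, 11235 CPM for the carrier protein gene Ttr, 5818 CPM for the peptide hormone gene Pyy, 3543 CPM for the prohormone-processing gene Cpe and 2436 CPM for Chga. Pcsk2, the convertase that processes glucagon, had a median of 1527 CPM. Among transcription factors, medians were 794 CPM for Isl1, 441 CPM for Pax6, 328 CPM for Neurod1, 153 CPM for Irx2 and 86.8 CPM for Pou3f4. Of these, Isl1, Pax6 and Neurod1 are pan-endocrine genes. Other genes of the alpha cell list were low. Irx1 had a median of 3.18 CPM and reached 100 CPM in 0 of 31 cells, and Gc had 66.4 CPM and reached it in 12.

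Other hormone genes were present in some Gcg-range cells. Ins1 reached 100 CPM in 13 of 31, Ghrl, which encodes ghrelin, in 12 and Ins2 in 8, while Sst, which encodes somatostatin, reached it in none. Of these, 9 cells carried both Ins1 and Ghrl. Ins1 reached 1810 CPM in a cell of E13.5, and Ghrl reached 6979.8 CPM in a cell of E14.5. Top2a reached 100 CPM in 3 cells, 2 of the 21 in E13.5 set 2 and 1 of the 7 in set 3. The liver gene Afp had a median of 143 CPM, while albumin (Alb) reached 100 CPM in 1 of all 160 members.

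A test against Gcg-range cells of the Ngn3-GFPhigh sort at E13.5 was not run, since that sort held 3 such cells among 77 epithelial cells and no set had the minimum of 3. Those 3 cells had a median of 73509 CPM of Gcg against 87433 CPM in the 28 Ngn3-GFPlow cells of the day. Their medians of Ttr were 4122 and 11216 CPM, of Chga 844 and 2343 CPM, and of Ins1 0 and 14.9 CPM. In the Pdx1-Cre;Rosa-RFP+ sort of E13.5, 9 of 93 epithelial cells (9.68%) were in the Gcg range, and at E15.5 it was 10 of 73 (13.7%).

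Gcg-range cells of the 2 Ngn3-GFPlow sets of E13.5 (28 cells) were also set against Gcg-range cells of other days, in comparisons added after the data were seen. Sort and day differ together in both, so they cannot be told apart. Against Ngn3-GFP+ cells of E12.5 (56 cells, 3 sets), 0 of 16379 genes passed (0%), with 1175 at an unadjusted p under 0.05 by edgeR and 221 calls by DESeq2. Gcg chose these cells and was not tested. It had 77847 and 113301 CPM in the Ngn3-GFPlow sets and 41072 to 65645 CPM in the E12.5 sets. The median log2 difference of 15 alpha cell genes was 0.06 beside -0.05 over all genes. All 20 G2/M genes were higher in both sets than in every E12.5 set, beside 11% of all genes in that direction, with a median of 5.70, and Top2a had 107 and 184 CPM against 4.55, 3.53 and 1.16 CPM. Those counts come from few cells, as the 3 cells with Top2a show.

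Against Gcg-GFP+ cells of E15.5 (36 cells, 2 sets), 17 genes passed (0.104%), 13 higher (0.0794%) and 4 lower (0.0244%) in the Ngn3-GFPlow sets of E13.5. Rps6ka2, a protein kinase gene, had 172 and 118 CPM against 35.7 and 28.04 CPM, a log2 fold change of 2.28 ± 0.23 (SE; edgeR adjusted p = 0.0354). Cd24a, a surface protein of immature cells, had 169 and 188 CPM against 22.8 and 28.2 CPM (2.90 ± 0.35). Ier2, an immediate early gene, had 7.39 and 9.64 CPM against 147 and 195 CPM (-4.24 ± 0.44), and Zbtb20, a transcriptional repressor, 105 and 97.3 CPM against 601 and 452 CPM (-2.28 ± 0.23). Ckb, Tmem59l, Brinp2, Abcg2 and the mitosis genes Prc1 and Ube2c were also higher, and Smarca1 was lower. Of 15 alpha cell genes 0 passed, with a median of 0.42. No call was left without E15.5 set 1, E15.5 set 2 or Ngn3-GFPlow set 3, and 46 were made without Ngn3-GFPlow set 2. Each of these fits has 1 set on one side, which is assumed to vary like the other sets.

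The 13 cells of no range differed in Cpa1 and Chga. In 7 cells, 3 from E13.5 set 1 and 4 from E14.5 set 1, the acinar and tip gene Cpa1 reached 100 CPM without Chga. In them Cpa1 lay between 158 and 5303 CPM, and Ptf1a, a tip and acinar factor, was at most 159 CPM. The other 6, from sets 2 and 3 of E13.5, carried Chga at 200 to 1095 CPM with Gcg at most 173 CPM. Of these 6, 3 also carried Cpa1, at 253 to 2062 CPM, and the one with most Cpa1 had the highest Ptf1a of the 13 cells (621 CPM).

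Markers of other cell types were read as lists. The summed CPM of 10 leukocyte genes had set means of 1.02 to 29.1, and 0 of 160 members carried 3 of them. Set means were 0.897 to 12.6 for endothelium, 3.60 to 200 for erythroid genes and 194 to 659 for mesenchyme, the last with Vim counted and with Pdgfra at 0 in every member. The liver list had set means of 474 to 9997, with Ttr counted, which the alpha cell list also holds. Afp reached 100 CPM in 34 of the 160 members and had a highest value of 6927 CPM. In the Gcg range Fgb, a fibrinogen gene on the liver list, reached it in 21 of 31 cells and Col1a2, a collagen gene on the mesenchyme list, in 16. The neural and glial list had set means of 12.2 to 153, and 22 of the 65 members of E13.5 had at least 1 of its genes at 100 CPM. The part of any of these in the comparisons was not tested.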

How the data were processed

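The authors' deposited Smart-seq2 table held raw read counts, with cells as columns and 40824 genes plus 92 ERCC spike-ins as rows. Per the submitters' processing notes the tools were TopHat2 2.1.0, Bowtie2 and HTSeq 0.6.0 on mm10, and their roles, strand setting and gene annotation are not given in the sources used here. Without strand, reads of overlapping antisense genes cannot be told apart. Of the cell columns, 965 were used here and 1230 were not, nor were the deposited TPM values and droplet libraries. The column of gene lengths was not used in a test.

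CPM were computed here without ERCC rows. All cells differed in their counts, and no doublet caller was run. Per set, the read counts of its cells were added up, sets with at least 3 cells were kept, and edgeR 4.0.16 under R 4.3.3 tested the genes that filterByExpr kept (TMM factors, robust quasi-likelihood fit, adjusted p under 0.05) in 1 fit per range of cells. Genes that chose the cells were left out of the tests. Each SE is the log2 fold change divided by the square root of the F statistic of the test, and was not given by the fit itself. Shares per set were compared with exact permutation tests (scipy 1.17.1). Named genes were, per comparison, the 8 most increased and the 8 most decreased by log2 fold change that passed, whose mean was 50 CPM or more in 1 group and whose sets did not overlap, plus members of 21 lists. Members, ranges and lists were chosen with earlier results of these data known, and some genes are not reported here.

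Alternatives were RLE normalization, no filter on low counts, DESeq2 1.42.0, mean CPM per cell with limma 3.58.1, the set number as a block, Epcam at 100 CPM, at least 5 cells per set, range thresholds 10 times higher or lower, each set left out, and, added later, the days without Gcg-range cells. The fits were tested on simulated data with 200 changed genes. PCR copies are not independent molecules, so that floors of 3 counts and intervals describe counting error alone. Gene positions are those of GENCODE on mm10, matched by gene identifier.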

Additional observations from a re-analysis of the deposited data

Results flagged for a closer look

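In groups of 4 to 10 sets, 15 of 121 values tested had 1 set far from the others for the size of the group. The cut-off is that of 1 in 20 for normally distributed values. A share above 0 in only 1 set passes it by construction, as for Ins1 and Ghrl, so the number flagged cannot be set against chance. Groups whose highest value was under 10 CPM were not tested.

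Set 1 of E14.5 held 3 such values. Of its 27 cells, 4 (14.8%) were in no range, against 0 in the other 4 sets of that day, 6 (22.2%) had Ptf1a at 100 CPM or more (the others 0) and 8 (29.6%) had Cpa1 (next 5.56%). Both are genes of tip and acinar cells. The hormone genes Ins1 and Ghrl set apart set 5 of E14.5, where each reached 100 CPM in 1 of the 8 cells, against 0 in the rest.

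In Neurog3-range cells of the Ngn3-GFPlow sort at E14.5, the highest set stood apart for Cck (26.05 CPM in set 1, next 4.09), Tubb3 (41.4 CPM in set 2, next 6.22), Adamts16 (278 CPM in set 4, next 108), Sox9 (1680 CPM in set 4, next 630) and Mboat1 (155 CPM in set 5, next 62.6). In Spp1-range cells, E14.5 set 4 of the Ngn3-GFPlow sort, with 3 cells, was highest for Cercam (126.2 CPM, next 56.02) and lowest for Cldn10 (93.1 CPM, next 256) and Krt19 (62.5 CPM, next 124). In the Pdx1-Cre sort of E13.5, set 3 was lowest for Col11a2 (8.41 CPM, next 25.7) and set 1 for Gm26905 (46.8 CPM, next 56.4).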

How the results depend on the processing

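Counts of calls depended on the tool and on single sets. Between E14.5 and E13.5, where 0 genes passed, no filter on low counts gave 3 calls, DESeq2 288, limma on mean CPM per cell 24, leaving out Gcg-range cells 2, and leaving out each set 0 to 570. Between E15.5 and E14.5 (0 calls) DESeq2 gave 180 and limma 1, and leaving out each set 0. Between E15.5 and E13.5 (1 call) the values were 2 without the filter, 738 by DESeq2, 12 by limma and 1 to 446 over sets left out. Within the Spp1 range, E14.5 against E13.5 (0 calls) gave 1, 65 and 3 by the same 3 alternatives, 1 with at least 5 cells per set and 0 to 25 over sets left out, and E15.5 against E14.5 gave 62 by DESeq2, 1 by limma and 0 to 1 over sets. Against Pdx1-Cre cells (529 calls) DESeq2 gave 1360, at least 5 cells per set 184, Spp1 at 10 times its threshold 36 and sets left out 233 to 775, and limma turned the split from 217 higher and 312 lower to 377 and 286. In the Neurog3 range (1894 calls, 900 higher and 994 lower) DESeq2 gave 3054, Neurog3 at 10 times its threshold 301 and sets left out 1053 to 2145, and RLE normalization gave 1012 higher and 887 lower. At that higher Neurog3 threshold the log2 differences of Cyr61 (-0.56), Sox9 (-0.32), Hhex (-2.43), Onecut1 (-0.078) and Cdk1 (-1.72) changed sign. Gcg-range cells of E13.5 against E12.5 (0 calls) gave 25 without the filter, 221 by DESeq2 and 0 over sets left out. Against E15.5 (17 calls) they gave 153, 806, 44 by limma, 10 with Gcg at 10 times its threshold and 0 to 46 over sets. For both of these comparisons, and for the days without Gcg-range cells, the alternatives were chosen after seeing the data. No share passed under any setting given here by value. The share of cells with Hes1 changed sign, to -1.04 points between E13.5 and later days and -3.98 points between E14.5 and E15.5 at thresholds 10 times higher, and with each set left out it ran from -6.94 points (without E15.5 set 1) to 17.8 points, and that of Top2a from -17.7 to 0.278 points. The cause was not tested in any of these cases. The comparison with Ngn3-GFPhigh Gcg-range cells was not run, since no set of that sort at E13.5 had 3 such cells.

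With a replicate block for the set number, calls were 0, 0 and 1 for the 3 day comparisons (the 1 was a lower gene, not Clu), 409 against Pdx1-Cre cells, 1375 in the Neurog3 range and 0 in the Gcg range against E15.5. Deviations of same-numbered sets had correlations of -0.111 to 0.246 over all members, not all above 0.1, so the numbers were not taken to pair the sets.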

Other observations

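The multipotent progenitor factors Pdx1 and Nkx6-1 were spread over all days. Pdx1 reached 100 CPM in 66.7, 40 and 18.2% of the cells of the 3 sets of E13.5, in 59.3, 55.6, 25, 62.5 and 25% at E14.5 and in 38.5 and 33.3% at E15.5. Nkx6-1 did so in 45.8, 16.7 and 9.09%, in 29.6, 44.4, 16.7, 37.5 and 25%, and in 61.5 and 33.3%. The sets of all days overlapped for both genes. Ttr, an alpha cell and liver gene, reached 100 CPM in 79.2 to 100% of the cells of every set, also where no Gcg-range cell was present, and so did not mark the Gcg range at that level. Fev, which marks late endocrine precursors, reached 100 CPM in 20 and 36.4% of the cells of sets 2 and 3 of E13.5 and in 0% of every other set.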
